A study of Mus musculus with 19 samples.

Results

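The TET dioxygenase genes Tet1, Tet2 and Tet3 and the glycosylase gene Tdg were followed through every annotated transcript of each gene in a table of transcript levels, alone and summed per gene. This gave 36 transcripts of 4 genes, out of 140948 transcripts and 54119 genes in all. RNA sequencing covered 19 libraries of mouse cells in 6 groups. The mouse embryonic stem cells (mESC), grown with LIF and inhibitors of the MEK and GSK3 kinases, gave 3 XX, 3 XY and 4 Tet3-/- libraries. Epiblast-like cells (EpiLC), derived from mESC over 5 days with FGF5 and Activin A and with LIF withdrawn, gave 3 XX, 3 XY and 3 Tet3-/- libraries. XX cells were of the LF2 line, Tet3-/- cells were XX mutants of LF2, and XY cells were of the E14 line, so that sex and line cannot be told apart. Mutant mESC carry the numbers 1, 2, 3 and 4, and mutant EpiLC carry 1, 3 and 4. The labels give neither the deleted exon of Tet3 nor whether a number stands for a clone, and nothing says that the libraries of a group came from separate cultures. P-values therefore measure only the spread between these libraries, which may be technical.

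TET enzymes oxidise 5-methylcytosine in DNA to 5-hydroxymethylcytosine and further to 5-formylcytosine and 5-carboxylcytosine. TDG cuts the last pair of these bases out of DNA, and base excision repair then restores an unmodified cytosine. Naive mESC are known for high Tet1 and Tet2, and Tet3 is best known from the oocyte and the zygote. The question behind the series was whether TET3 is needed when mESC turn into EpiLC.

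Levels are in TPM, a relative unit that corrects for transcript length and sums to 1000000 in each library. No sequencing depth can be read from it, and precision was taken from the spread between libraries. The naive markers (7 genes, among them Klf4, Esrrb and Prdm14) summed to between 301 and 738 TPM in the mESC libraries and to between 26.9 and 91.6 TPM in the EpiLC libraries. The formative marker Fgf5 reached 56.3 TPM on average in XY EpiLC but 2.46 TPM in XX EpiLC. Of the other formative markers, Otx2 fell from mESC to EpiLC in XX (18.9 to 11.0 TPM) and rose in XY (1.74 to 62.6 TPM). Lef1 was 0.206 and 0.270 TPM in XX and rose in XY, and Pou3f1 and Dnmt3b rose in both lines. Fibroblast markers (4 genes) summed to at most 1.76 TPM in any library. Mutant EpiLC library 3 stood apart: its 3 mesendoderm markers (T, Mixl1 and Eomes) summed to 125 TPM, against 2.95 and 3.16 TPM in mutants 1 and 4 and 2.88 to 3.17 TPM in XX EpiLC. Protein-coding genes held from 21.4% to 46.7% of a library's TPM, and Rn7s1, a non-coding RNA of the signal recognition particle, held from 23.5% to 43.7%. Values scaled by the median-of-ratios method, which removes a shift common to most genes, are therefore given wherever they change the call of a member gene. For single transcripts and for other genes they are given in part. The step from mESC to EpiLC is called a transition here. On TPM, the median log2 difference of all 14972 tested genes over that step was 0.14 for XX, 0.54 for XY and -0.13 for Tet3-/-. For Tet3-/- against XX it was 0.19 in mESC and -0.07 in EpiLC, and for XX against XY it was -0.19 in mESC and -0.59 in EpiLC. For the differences between transitions it was -0.40 (XX minus XY) and -0.28 (Tet3-/- minus XX). After scaling each lay within 0.02 of 0.

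All positions are on GRCm38. Tet1 (ENSMUSG00000047146.17) lies on chromosome 10 from 62804570 to 62908996 on the minus strand and had 10 annotated transcripts. Tet2 (ENSMUSG00000040943.12) lies on chromosome 3 from 133463679 to 133545139 on the minus strand and also had 10. Tet3 (ENSMUSG00000034832.15) lies on chromosome 6 from 83362373 to 83459084 on the minus strand and had 5. Tdg (ENSMUSG00000034674.18) lies on chromosome 10 from 82629828 to 82650799 on the plus strand and had 11. Because these enzymes act on the cytosine of the dinucleotide CG, sequences upstream of Tet1, Tet2 and Tdg are given here to show how densely CG occurs there, together with the first exon of Tet1-202, a non-coding Tet1 transcript that started within the gene and made up much of Tet1 in XY cells. Capitals mark each CG, which reads the same on both strands. Annotated exons were left out of the upstream windows, so that the Tet1 window is the 88 bases at chr10:62887325-62887412 (minus strand), next to the RefSeq start. That start, 62887324, is also the start of the transcript Tet1-207, and the leading transcript Tet1-206 starts at 62899118. The Tet2 window is chr3:133544391-133544640 (minus strand), the Tdg window chr10:82629588-82629827 (plus strand) and the Tet1-202 exon chr10:62865136-62865304 (minus strand). The upstream windows are from RefSeq (GRCm38.p6, in which all 4 genes matched) and the exon is from GENCODE M21.
Tet1 upstream window: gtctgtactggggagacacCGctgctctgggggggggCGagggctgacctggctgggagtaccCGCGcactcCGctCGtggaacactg
Tet1-202 first exon: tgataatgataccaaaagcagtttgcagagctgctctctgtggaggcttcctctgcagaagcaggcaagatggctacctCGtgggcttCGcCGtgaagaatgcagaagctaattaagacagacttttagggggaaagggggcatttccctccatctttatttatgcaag
Tet2 upstream window: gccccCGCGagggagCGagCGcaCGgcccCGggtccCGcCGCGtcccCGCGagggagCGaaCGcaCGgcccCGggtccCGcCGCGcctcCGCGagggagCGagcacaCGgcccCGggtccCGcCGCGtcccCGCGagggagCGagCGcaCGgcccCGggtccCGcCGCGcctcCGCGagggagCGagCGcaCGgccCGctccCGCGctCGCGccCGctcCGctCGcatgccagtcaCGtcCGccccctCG
Tdg upstream window: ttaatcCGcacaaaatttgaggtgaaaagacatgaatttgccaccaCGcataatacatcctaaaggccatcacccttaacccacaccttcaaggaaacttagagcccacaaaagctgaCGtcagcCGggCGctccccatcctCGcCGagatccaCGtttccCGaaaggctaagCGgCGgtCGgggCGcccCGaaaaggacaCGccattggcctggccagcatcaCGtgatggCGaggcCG
The Tet2 window held 51 CG in 250 bases, and 0.0670% of 32841 RefSeq promoters held as many in the 250 bases before their start. Over the same 250 bases Tdg had 19 CG (as many or more in 19.7% of promoters), Tet3 had 17 (23.5%) and Tet1 had 15 (27.3%), and the median promoter had 6. The Tet1-202 exon held 3 CG in 169 bases.

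In naive XX cells Tet1 and Tet2 made up nearly all Tet RNA, and on the way to EpiLC Tet2 fell, Tdg and Tet3 rose and Tet1 was not called. In XY cells the same step raised Tet1 from near 0. Differences are EpiLC minus mESC in log2(TPM + 1), fitted with limma, and a gene was called at an adjusted p under 0.05 over all genes tested. In XX, 3 of the 4 members were called, 2 higher and 1 lower, where 31.3% of all tested genes were called, 19.2% higher and 12.2% lower. In XY all 4 were called, 3 higher and 1 lower, where 50.5% of all genes were called, 41.1% higher and 9.36% lower. In Tet3-/- it was 3 of 4, 1 higher and 2 lower, where 35.1% of all genes were called, 13.6% higher and 21.5% lower. After scaling, all 4 members were called in each transition. The background was then 50.4% in XX (24.5% higher, 25.9% lower), 51.4% in XY (26.4% higher, 25% lower) and 52.4% in Tet3-/- (25.2% higher, 27.2% lower), so that around 1 gene in 2 was called.

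**Figure D1:**
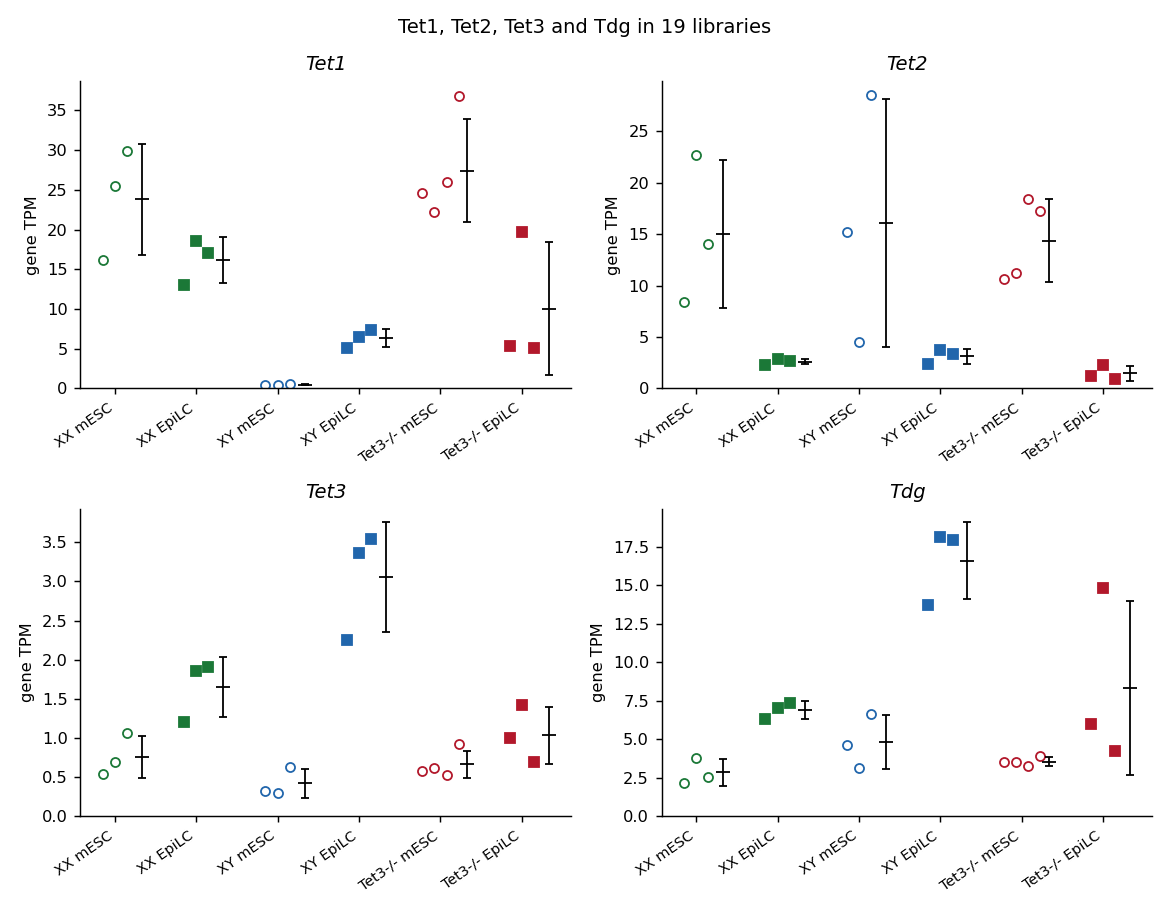
Gene TPM of Tet1, Tet2, Tet3 and Tdg (vertical axes, from 0) in the 19 libraries of 6 groups. Each symbol is a library (open circles mESC, filled squares EpiLC; green XX, blue XY, red Tet3-/-) and the bars are mean ± SD. Tet2 was lower in every EpiLC library than in every mESC library, and Tet1 in XY mESC stayed at 0.546 TPM or less.

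Tet1 encodes the TET enzyme known as the most abundant in mESC, but in every XY mESC library here its RNA was below that of Tet2. Tet1 levels in XX mESC were 16.2, 25.5 and 29.9 TPM, and in XX EpiLC 13.0, 18.5 and 17.1 TPM. The ranges overlapped, and the difference of -0.50 (SE 0.36) was not called (limma adjusted p 0.332). On scaled values the groups lay apart and the fall was called (-0.71, limma adjusted p 0.00875). In XY mESC Tet1 was 0.445, 0.423 and 0.546 TPM, and in XY EpiLC 5.11, 6.53 and 7.39 TPM. All XY EpiLC libraries were far above all XY mESC libraries, a rise of 2.31 (SE 0.36, limma adjusted p 3.48e-05). In Tet3-/- mESC it was 24.6, 22.2, 25.9 and 36.9 TPM, and in Tet3-/- EpiLC it was 5.31, 19.7 and 5.11 TPM in mutants 1, 3 and 4. Every mutant EpiLC library was below every mutant mESC library, and Tet1 fell by 1.59 on the log2 scale (SE 0.34, limma adjusted p 0.000978). Mutant 3 was the high one, and the mean of 10.0 TPM was 5.21 TPM without it.

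The XX and XY transitions of Tet1 differed by -2.81 (SE 0.51, limma adjusted p 0.000871; 16% of all genes were called in this comparison). Tet3 was the other member called here, with a smaller rise in XX (-0.92, SE 0.26, limma adjusted p 0.0234). The Tet3 call was lost in 6 of the 12 fits that left out a library (XX mESC 3, XY mESC 1 or 2, XX EpiLC 1, XY EpiLC 2 or 3; highest adjusted p 0.0837) but was kept on scaled values (-0.54, limma adjusted p 0.0306), where the same 2 members and 23.7% of all genes were called. It was lost with rescaling to nuclear protein-coding genes (-0.63, limma adjusted p 0.0763).

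Tet2 encodes a TET enzyme without a DNA-binding CXXC domain. It was 8.40, 22.7 and 14.1 TPM in XX mESC and 2.30, 2.82 and 2.69 TPM in XX EpiLC, 15.3, 4.52 and 28.5 TPM in XY mESC and 2.34, 3.76 and 3.34 TPM in XY EpiLC. In the mutants it was 10.6, 11.2, 18.4 and 17.3 TPM in mESC and 1.19, 2.32 and 0.869 TPM in EpiLC. No EpiLC library of any genotype reached the lowest mESC library, and the mESC libraries varied most among themselves. The log2 difference was -2.06 for XX cells, -1.75 for XY cells and -2.65 for Tet3-/- cells (SE 0.45, 0.45 and 0.42; limma adjusted p 0.00145, 0.00324 and 5.17e-05). On scaled values these were -2.27, -2.23 and -2.58.

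Tdg encodes thymine DNA glycosylase. It was 2.17, 3.80 and 2.55 TPM in XX mESC and 6.28, 7.05 and 7.38 TPM in XX EpiLC. In XY mESC it was 4.61, 3.14 and 6.66 TPM, and in XY EpiLC 13.7, 18.1 and 18.0 TPM. In Tet3-/- mESC it was 3.49, 3.49, 3.26 and 3.92 TPM, and in Tet3-/- EpiLC 5.95, 14.8 and 4.25 TPM. Within each genotype every EpiLC library was above every mESC library. The rise was 1.06 for XX cells, 1.63 for XY cells and 0.88 for Tet3-/- cells (SE 0.31, 0.31 and 0.29; limma adjusted p 0.0133, 0.000272 and 0.0246). On scaled values the 3 rises were 0.91, 1.02 and 1.02 (limma adjusted p 2.66e-05, 7.80e-06 and 3.50e-06). On TPM the rise in the mutants was 0.41 without mutant EpiLC library 3 (limma adjusted p 0.151) and 0.85 without mutant mESC library 3 (limma adjusted p 0.0544), and the rise in XX was 0.93 without XX mESC 1 (limma adjusted p 0.0574). The call in the mutants was also lost with no filter on low genes (limma adjusted p 0.0607), with only the groups compared in the fit (0.0779) and with a replicate block (0.87, limma adjusted p 0.0532). The pseudogene Tdg-ps, whose sequence could share reads with Tdg, was from 12.5% to 21.4% of the sum of both in each library, so that the split between them is uncertain.

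Tet3 was the least abundant TET gene except in the XY cells, where it exceeded Tet1 in XY mESC 3 and Tet2 in XY EpiLC 3. It encodes the TET enzyme of the oocyte and zygote. It was 0.536, 0.688 and 1.06 TPM in XX mESC and 1.21, 1.85 and 1.90 TPM in XX EpiLC. In XY mESC it was 0.327, 0.30 and 0.629 TPM, and in XY EpiLC 2.25, 3.36 and 3.54 TPM. In both genotypes every EpiLC library was above every mESC library. In Tet3-/- mESC it was 0.577, 0.618, 0.532 and 0.916 TPM, and in Tet3-/- EpiLC 0.997, 1.42 and 0.693 TPM, with mutant EpiLC 4 inside the mESC range. The microRNA gene Mir6374 lies within the span of Tet3 on the same strand (chromosome 6, 83400996 to 83401102) and had up to 10.5 TPM in a library. Whether it overlaps an exon of Tet3 was not checked, so it is not known whether these genes share reads. Tet3 rose in XX by 0.59 (SE 0.19, limma adjusted p 0.0206) and in XY by 1.51 (SE 0.19, limma adjusted p 2.41e-06). In Tet3-/- the difference was 0.28 (SE 0.17, limma adjusted p 0.233) on TPM and 0.37 (limma adjusted p 0.0124) on scaled values. The call in XX was lost when XX mESC 1, XX EpiLC 2 or XX EpiLC 3 was left out, with adjusted p from limma of up to 0.0907.

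**Figure D2:**
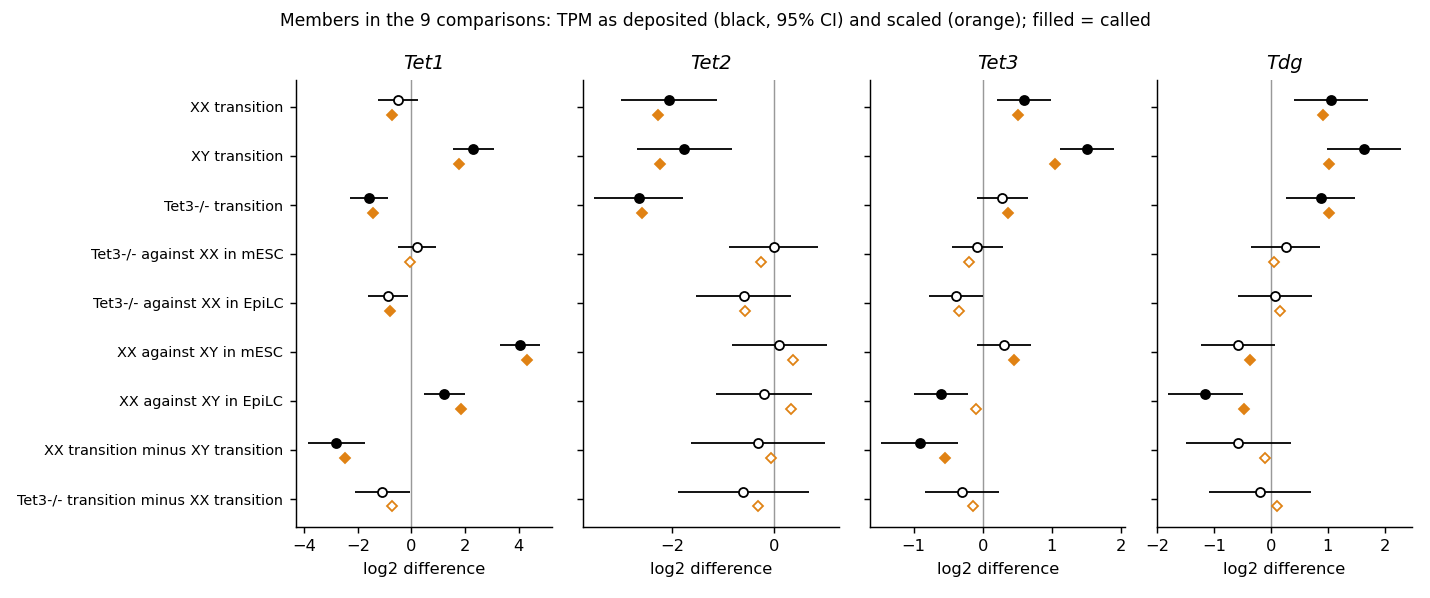
Log2 differences (horizontal axes) of the 4 genes in the 9 comparisons (vertical axis). Black circles are TPM as deposited with 95% confidence intervals, orange diamonds are the same comparison after median-of-ratios scaling, and filled symbols were called. Tet2 was called in the 3 transitions and in no other comparison on either scale.

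The make-up of Tet RNA does not depend on the TPM scale of a library, but it depends on which transcripts are summed. Tet1 in XX and Tet3-/- cells includes short, incomplete transcripts, described below, that were nearly absent in XY cells. Much of Tet1 in XY cells was a non-coding transcript. The incomplete transcripts are annotated as coding, so shares from coding transcripts alone still count them. Shares without them were not tested. In the sum of the 3 genes, the share of Tet2 was 37.1% ± 8.19 in XX mESC and 12.8% ± 0.986 in XX EpiLC (SD, n = 3 each). It was 92.5% ± 5.44 in XY mESC and 25.0% ± 2.23 in XY EpiLC (SD, n = 3 each), and 33.8% ± 5.05 (SD, n = 4) in Tet3-/- mESC and 12.9% ± 2.99 (SD, n = 3) in Tet3-/- EpiLC. Averaged over genotypes it fell by 37.5 percentage points. The Tet1 share rose by 25.7 points, from 61.0% to 79.1% in XX, from 4.23% to 50.8% in XY and from 64.7% to 77.1% in Tet3-/-. The Tet3 share rose by 11.8 points, from 1.97% to 8.02% in XX, from 3.29% to 24.2% in XY and from 1.57% to 9.92% in Tet3-/-. Each of these 3 changes had an exact two-sided p of 7.14e-05 by permutation within genotypes, the smallest that 14000 arrangements can give (0.000214 adjusted over 9 tests). The mutants differed from XX cells by 0.843 points for Tet1, -1.59 for Tet2 and 0.749 for Tet3 on average over both states (exact permutation p from 0.551 to 0.783). The XX and XY cells differed by 42.6 points for Tet1 and -33.8 points for Tet2 (exact permutation p 0.005 each, the smallest that 400 arrangements can give, 0.009 adjusted). For Tet3 the difference was -8.77 points (exact permutation p 0.03, 0.045 adjusted, and 0.075 without XX mESC 2 or without XY mESC 2).

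**Figure D3:**
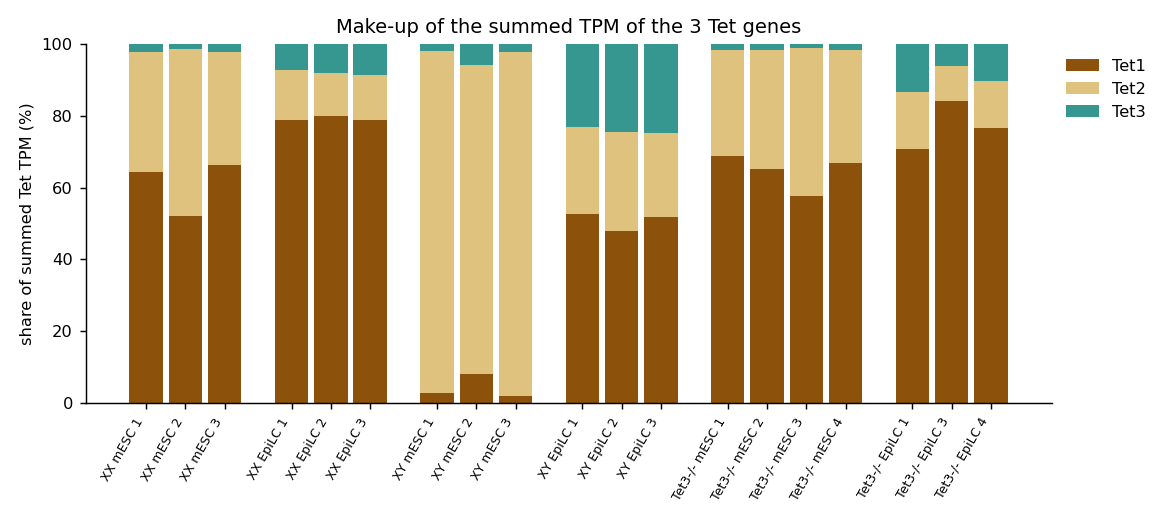
Share of each gene in the summed TPM of Tet1, Tet2 and Tet3 (vertical axis, %), with 1 stacked bar for each of the 19 libraries, grouped by genotype and state. Tet2 filled 86.2% to 96.0% of the bar in XY mESC, and Tet3 filled 23.2% to 24.8% in XY EpiLC.

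Loss of Tet3 was compared within the LF2 line. In mESC none of the 4 members was called, in a comparison that called 0.601% of all genes by limma, and none had an unadjusted p under 0.05. The 95% confidence intervals of the log2 difference ran from -0.50 to 0.92 for Tet1, from -0.87 to 0.88 for Tet2, from -0.45 to 0.29 for Tet3 and from -0.35 to 0.87 for Tdg. In EpiLC again none was called, against 1.08% of all genes, and Tet1 alone had an unadjusted p under 0.05 (limma p 0.0249). Its log2 difference was -0.88 (95% confidence interval -1.63 to -0.12, limma adjusted p 0.383). Mutants 1 and 4 (5.31 and 5.11 TPM) lay below every XX EpiLC library and mutant 3 (19.7 TPM) above every one. On scaled values Tet1 was 7.04, 14.8 and 7.81 in mutants 1, 3 and 4 and 15.1, 19.3 and 16.9 in XX EpiLC, the groups no longer overlapped, and the difference was called (-0.80, limma adjusted p 0.0332; 5.46% of all genes were called on that scale). Without mutant 3 it was called on TPM too (-1.46, limma adjusted p 0.00586). For Tet3 the EpiLC difference was -0.39 on TPM (95% confidence interval -0.78 to 0.0044, limma p 0.0524). On scaled values it was -0.35 (limma adjusted p 0.115). The TPM intervals were -1.53 to 0.34 for Tet2 and -0.57 to 0.73 for Tdg. On scaled values the mutant and XX EpiLC libraries lay apart for Tet2 and Tet3 too, with the mutants lower, though neither gene was called. The difference between the mutant and XX transitions of Tet1 was -1.09 (limma adjusted p 0.617) and -1.67 without mutant 3 (limma adjusted p 0.0283). With all libraries none of the members was called in that comparison, against 0.174% of all genes, and again Tet1 alone had an unadjusted p under 0.05 (limma p 0.040). Mutant 3 was also the library with the high mesendoderm markers, and with a formative marker sum of 151 TPM against 42.7 and 41.5 TPM in mutants 1 and 4. Its primitive endoderm markers summed to 7.95 TPM (0.871 and 0.866 TPM in mutants 1 and 4), its trophectoderm markers to 8.13 TPM (1.09 and 0.988 TPM) and its naive markers to 65.8 TPM (26.9 and 28.9 TPM). The part of these markers in the Tet1 result was not tested. In bulk RNA, fewer cells of a kind and less RNA per cell cannot be told apart.

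Sex and line were compared in each state as XX minus XY. Tet1 was the only member called in mESC (4.04 higher in XX, SE 0.36, limma adjusted p 4.26e-07; 14.2% of all genes were called). On scaled values Tet3 was called higher in XX (0.45, limma adjusted p 0.00981) and Tdg lower (-0.36, limma adjusted p 0.0472), and with Tet1 this made 3 members, where 31.3% of all genes were called. In EpiLC Tet1 was higher in XX (1.23, SE 0.36, limma adjusted p 0.0120), and Tet3 (-0.61, SE 0.19, limma adjusted p 0.0151) and Tdg (-1.15, SE 0.31, limma adjusted p 0.00781) were lower, where 47.2% of all genes were called. Tet3 lost its call there without XX EpiLC 1, XY EpiLC 2 or XY EpiLC 3 (limma adjusted p up to 0.0837). Against a median of -0.59 for all genes, the Tet3 difference was not called on scaled values (-0.09, limma adjusted p 0.603), that of Tdg shrank to -0.46 (limma adjusted p 0.0125) and that of Tet1 grew to 1.85 (limma adjusted p 3.86e-06), against 33.8% of all genes called on that scale. With rescaling to nuclear protein-coding genes the Tdg difference was not called (-0.58, limma adjusted p 0.0635). Some marker sums differed between the lines and others overlapped. Mesendoderm markers summed to between 7.32 and 11.8 TPM in XY mESC against 0.481 to 0.702 TPM in XX mESC. In EpiLC they summed to between 21.4 and 32.7 TPM in XY against 2.88 to 3.17 TPM in XX. The 5 formative markers (Fgf5, Otx2, Pou3f1, Dnmt3b and Lef1) summed to between 257 and 329 TPM in XY EpiLC against 39.0 to 46.5 TPM in XX EpiLC. In mESC the formative sums overlapped (11.5 to 26.5 TPM in XY, 19.3 to 28.6 TPM in XX). Naive sums overlapped in mESC (301 to 738 TPM in XY, 340 to 623 TPM in XX) and in EpiLC (83.9 to 91.6 TPM in XY, 77.7 to 87.1 TPM in XX). The part of these markers in the differences was not tested. Ordered by mean level, Tet1 ran from Tet3-/- mESC through XX mESC, XX EpiLC, Tet3-/- EpiLC and XY EpiLC to XY mESC, and of these neighbours only the last pair did not overlap. For Tet2 the 3 mESC groups overlapped each other and lay apart from the 3 EpiLC groups. For Tet3 only XY EpiLC, the highest, lay apart from its neighbour XX EpiLC, and for Tdg all neighbours overlapped, from XY EpiLC at the top to XX mESC at the bottom.

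The transcripts of Tet1 differed between the lines in kind as well as level. The leading full-length transcript, Tet1-206, was 6.53, 9.98 and 12.6 TPM in XX mESC, 0.134, 0.173 and 0.0907 TPM in XY mESC, 5.06, 7.44 and 6.79 TPM in XX EpiLC and 1.90, 2.18 and 2.88 TPM in XY EpiLC. Another 4 annotated transcripts, Tet1-207, Tet1-208, Tet1-209 and Tet1-210, begin at other first exons, join the exon that is the second of Tet1-206 (62878152 to 62880133) and are annotated only that far. Together they made up 46.8% ± 1.69 of Tet1 TPM in XX mESC and 41.3% ± 3.24 in XX EpiLC (SD, n = 3 each), 47.2% ± 3.50 (SD, n = 4) in Tet3-/- mESC and 34.7% ± 1.44 (SD, n = 3) in Tet3-/- EpiLC. In the XY libraries all of them were listed at 0, except Tet1-208 at 0.0450 TPM in XY mESC 2. This held in XY EpiLC as well, where Tet1-206 was present. A sum over transcripts counts a short, incomplete transcript as a whole molecule, so that gene TPM of Tet1 in XX cells includes them, while the levels of Tet1-206 alone do not. Tet1-206 alone was higher in XX than XY by 3.97 in mESC and by 1.30 in EpiLC on log2(TPM + 0.5) (limma adjusted p 2.7e-06 and 0.0166 over 49532 transcripts). The EpiLC call was lost without XX EpiLC 2 or XY EpiLC 2 (limma adjusted p up to 0.0583). Over the XX transition Tet1-206 was not called on TPM (-0.53, limma adjusted p 0.373) but fell on scaled values (-0.84, limma adjusted p 0.0113). Of 9 tested Tet1 transcripts, 6 were called higher in XX mESC and none lower, where 6.37% of all transcripts were called. In EpiLC, where 31% of all transcripts were called, 5 were higher in XX and 1 was lower. Those called higher include Tet1-207, Tet1-209 and Tet1-210 in both states and Tet1-208 in mESC. At or near 0 in XY, these passed the TPM floor only through XX and Tet3-/- libraries. They could not have been called lower in XX, so the counts add no separate evidence. Among all the Tet1 transcript calls, Tet1-205 in mESC was lost without XX mESC 3 or XY mESC 3 and Tet1-210 in mESC without XX mESC 3 (limma adjusted p up to 0.0949 and 0.0514). In EpiLC Tet1-203 was lost without XX EpiLC 2, XX EpiLC 3 or XY EpiLC 2 and Tet1-210 without XX EpiLC 3, XY EpiLC 2 or XY EpiLC 3 (limma adjusted p up to 0.118 and 0.0548).

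The non-coding transcript Tet1-202, whose first exon is printed above, starts in the intron before the exon at 62864808 to 62864861. It was 0.244, 0.166 and 0.229 TPM in XY mESC and 2.55, 3.26 and 3.45 TPM in XY EpiLC, a rise of 2.32 (SE 0.31, limma adjusted p 1.27e-05). In XX EpiLC it was 0.432, 1.42 and 0.639 TPM, below every XY EpiLC library (-1.49, SE 0.31, limma adjusted p 0.00234), and on scaled values the difference was -0.86 (limma adjusted p 0.0277). Its share of Tet1 TPM was 48.8% ± 1.87 in XY EpiLC, 45.3% ± 8.24 in XY mESC, 4.90% ± 2.37 in XX EpiLC and 1.67% ± 0.934 in XX mESC (SD, n = 3 each). Over the XY transition the mean of Tet1-206 went from 0.133 to 2.32 TPM and that of Tet1-202 from 0.213 to 3.09 TPM.

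**Figure D4:**
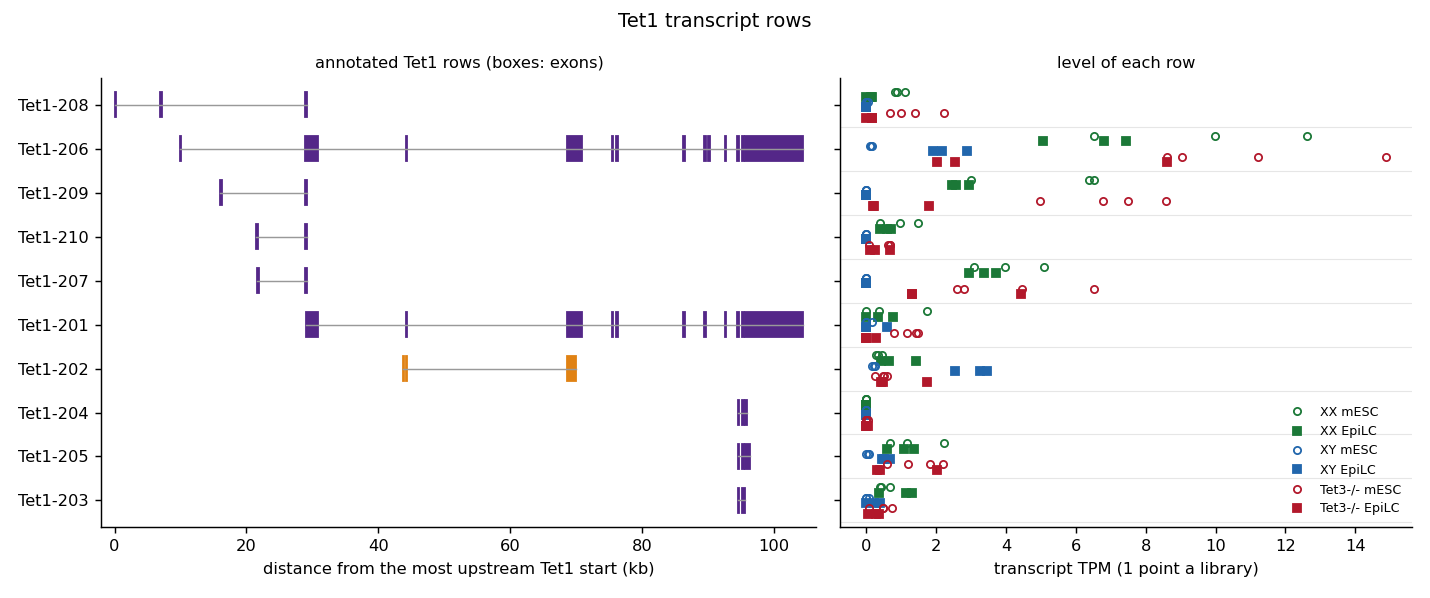
Left, the annotated Tet1 transcripts by distance from the most upstream start (kb), with exons as boxes and Tet1-202 in orange. Right, the TPM of each transcript in every library (open circles mESC, filled squares EpiLC; green XX, blue XY, red Tet3-/-): the 4 transcripts with other first exons stay at or near 0 in all XY libraries, and Tet1-202 is highest in XY EpiLC.

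Transcripts of the other genes were called in differing numbers. Of 7 tested Tet2 transcripts, 4 fell in the XX transition, 6 in XY and 6 in Tet3-/-, and none rose (12.1%, 32.4% and 7.97% of all tested transcripts were called higher, and 6.43%, 6.03% and 11.8% lower). On scaled values Tet2-209 and Tet2-210 also fell in XX, and Tet2-202 in Tet3-/- (limma adjusted p 0.00278, 0.00148 and 0.0173). On that scale 15463 of 49532 transcripts were called in XX and 15560 in Tet3-/-, in either direction. Retained-intron transcripts, which keep an intron and are not annotated as coding, made up 32.2% of Tet2 in XX mESC, 41.1% in XY mESC and 30.8% in Tet3-/- mESC, and 43.6%, 41.2% and 45.1% in the EpiLC groups in the same order. The share of the leading coding transcript Tet2-204 fell by 11.1 percentage points on average over genotypes (exact permutation p 0.000714, 0.00686 adjusted over 12 tests). Among coding transcripts alone this was -3.24 points (adjusted exact permutation p 0.645). Tet2-204 has 0 bases that lie outside the exons of other Tet2 transcripts, and Tdg-201 has 31 of 2959 of its own. Tdg-207 and Tet1-205 also have 0, so that the split of reads between such transcripts and the rest of the gene is uncertain. Tet2-204 kept its call in all 3 transitions whichever library was left out, and Tet2-206 lost its call in each when 1 of several libraries was left out (highest limma adjusted p 0.0646, 0.0521 and 0.0713). Calls were also lost for Tet2-208 in XX without any XX library except XX mESC 1 (limma adjusted p up to 0.103), for Tet2-201 and Tet2-210 in XY without any XY library except XY mESC 2 (up to 0.155 and 0.227), and for Tet2-209 in Tet3-/- without mESC 3, mESC 4, EpiLC 1 or EpiLC 4 (up to 0.0763). Of 7 tested Tdg transcripts, all 7 rose in the XY transition and 2 in each of the others (Tdg-203 and Tdg-208). After scaling, 4 of the 7 remained called in XY: Tdg-201, Tdg-203, Tdg-207 and Tdg-208. Over the alternatives, scaling among them, from 12357 to 23653 of all 49532 transcripts were called in XY, in either direction. In the other transitions calls were gained, for Tdg-205 in XX (limma adjusted p 0.0467) and for Tdg-201 in Tet3-/- (limma adjusted p 0.00129), and Tdg-203 and Tdg-208 stayed called. The share of the leading transcript Tdg-201 fell by 11.1 points (exact permutation p 0.00114, 0.00686 adjusted). Of the Tdg calls in XY, those of Tdg-201 (without XY mESC 2), Tdg-204 (without XY mESC 2 or 3) and Tdg-205 (without XY EpiLC 2) were lost, with adjusted p from limma of up to 0.0641, 0.144 and 0.0643. The XX call of Tdg-203 was lost whichever XX library was left out (limma adjusted p 0.0521 to 0.126) and that of Tdg-208 without XX mESC 1 or 3 or XX EpiLC 1 or 3 (up to 0.114). In Tet3-/- they were lost without mutant EpiLC 3, among others (Tdg-203 0.43, limma adjusted p 0.127; Tdg-208 0.54, limma adjusted p 0.114).

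Tet3 was described by transcript because the mutation was in this gene. Tet3-202 starts at 83441675 and was 0.258, 0.482 and 0.486 TPM in XX mESC and 0.245, 0.353, 0.305 and 0.443 TPM in Tet3-/- mESC. In EpiLC it was 0.694, 1.1 and 0.968 TPM in XX and 0.464, 0.945 and 0.367 TPM in Tet3-/-. Tet3-203, which starts upstream at 83456392 and has the longer coding part (5409 against 5004 bases), was 0.335, 0.482 and 0.635 TPM in XX EpiLC and 0.331, 0.258 and 0.198 TPM in the mutants. Both transcripts were detected in all 7 mutant libraries, and neither was called against XX in either state (limma adjusted p 0.630 to 0.997). Tet3-204 was listed at 0 in all libraries. The labels name no deleted exon, so that transcript levels do not check the genotype. In the XY transition both rose, Tet3-202 by 1.46 and Tet3-203 by 1.24 (limma adjusted p 7.17e-05 and 7.77e-05). In the XX and Tet3-/- transitions neither was called on TPM. On scaled values Tet3-202 rose in both (0.51 and 0.43, limma adjusted p 0.00434 and 0.0085) and Tet3-203 was not called.

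**Figure D5:**
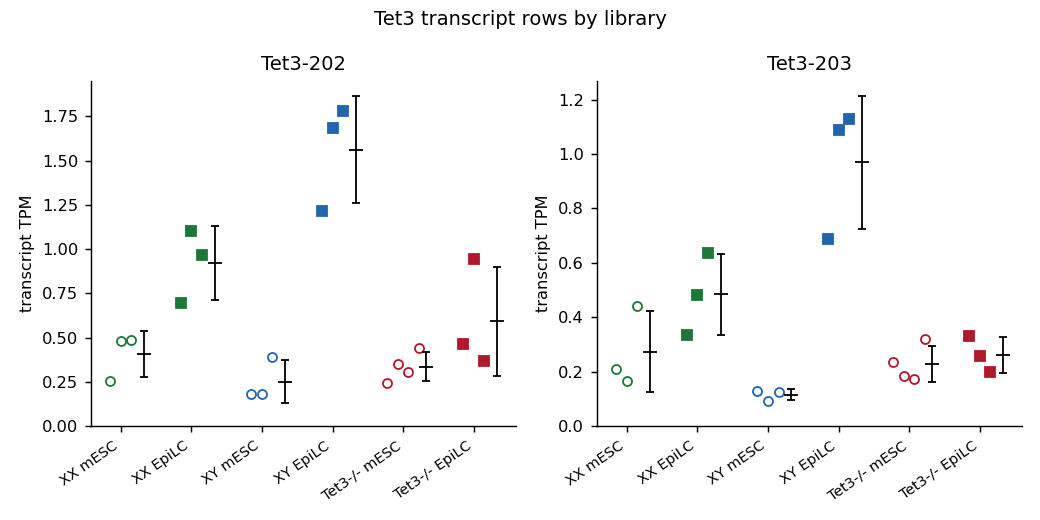
TPM of the main Tet3 transcripts (vertical axes, from 0) in the 19 libraries. Symbols are libraries and bars are mean ± SD; the Tet3-/- libraries (red) hold both transcripts, and the XY EpiLC libraries (filled blue) are highest.

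Genes that act with TET and TDG were counted in 5 lists. Of 16 glycosylase and base excision repair genes, 1 was called lower in the XX transition, 6 higher in XY and 3 lower in Tet3-/-. Among all genes 12.2% were lower in XX, 41.1% higher in XY and 21.5% lower in Tet3-/-, so that 6 of 16 in XY and 3 of 16 in Tet3-/- lay near these shares. On scaled values the counts were 1 higher and 6 lower in XX, 4 and 5 in XY, and 0 and 5 in Tet3-/-, so that the direction in XY depended on scaling, and about 1 in 4 of all genes was called in each direction. Ung, the uracil glycosylase, went from 24.0 to 9.99 TPM in XX (-1.07, limma adjusted p 0.0466) and from 27.6 to 9.65 TPM in Tet3-/- (-1.59, limma adjusted p 0.00212). Mbd4, which like TDG removes thymine from mismatches with guanine, fell in Tet3-/- (-0.92, limma adjusted p 0.00217). Neil3, a glycosylase for oxidised bases, rose in XY from 2.32 to 10.2 TPM (1.77, limma adjusted p 4.98e-06), and its XX and XY transitions differed (-1.84, limma adjusted p 0.000778).

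Of 20 partners, cofactor enzymes and turnover factors of TET, 8 rose and 3 fell in XX, 9 and 2 in XY, and 5 and 5 in Tet3-/- (scaled: 8 and 5, 7 and 4, 9 and 7). Of all genes 19.2% rose and 12.2% fell in XX, 41.1% and 9.36% in XY, and 13.6% and 21.5% in Tet3-/-, and after scaling 24.5% and 25.9%, 26.4% and 25%, and 25.2% and 27.2%. The 9 of 20 that rose in XY and the 5 of 20 that fell in Tet3-/- lay near those shares. Lin28a, an RNA-binding protein, rose most in all 3 transitions (4.81, 4.61 and 4.71; limma adjusted p 5.73e-09, 5.03e-09 and 2.08e-09). Prdm14, a naive pluripotency factor that lowers DNA methylation, fell most (-2.97, -3.38 and -3.47; limma adjusted p 5.16e-08, 5.34e-09 and 2.06e-09). Idh2, which makes the TET cosubstrate 2-oxoglutarate in mitochondria, fell from 96.6 to 35.9 TPM in XX, from 70.6 to 37.7 TPM in XY and from 78.2 to 15.6 TPM in Tet3-/-. On TPM it was the only gene of this list called between Tet3-/- and XX EpiLC (-1.16, limma adjusted p 0.0133), where 1.08% of all genes were called. On scaled values 1 gene of the list was higher and 1, Idh2, was lower, where 5.46% of all genes were called. Gadd45a rose in XX from 3.30 to 16.2 TPM (2.01, limma adjusted p 5.59e-06), and its XX and XY transitions differed by 1.80 (limma adjusted p 0.00198).

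Of 6 reported binders of oxidised cytosine, none rose and 1 fell in XX, 2 rose and none fell in XY, and none rose and 2 fell in Tet3-/- (scaled: 0 and 2, 1 and 2, 2 and 2). These few genes are read against the same shares of all genes, 12.2% lower in XX, 41.1% higher in XY and 21.5% lower in Tet3-/-. Wdr76 fell in XX (-1.89, limma adjusted p 4.86e-05) and in Tet3-/- (-2.18, limma adjusted p 3.44e-06). Of 3 tested cytosine deaminases (4 in the list), 1 rose in each transition, and 1 fell in XY (Apobec2) and 1 in Tet3-/- (Apobec3). Of all genes 19.2% rose in XX, 41.1% rose and 9.36% fell in XY, and 13.6% rose and 21.5% fell in Tet3-/-. On scaled values 1 rose and 0 fell in XX, 1 and 2 in XY, and 1 and 1 in Tet3-/-. On that scale 24.5% of all genes rose in XX, 26.4% rose and 25% fell in XY, and 25.2% rose and 27.2% fell in Tet3-/-. Apobec1 was the one that rose in all 3 transitions (1.05, 1.16 and 0.49; limma adjusted p 0.00012, 2.56e-05 and 0.0266) and was lower in Tet3-/- than XX EpiLC (-0.82, limma adjusted p 0.0261; scaled -0.71, limma adjusted p 0.0649). The methyltransferases that set the mark TET enzymes oxidise, Dnmt3a and Dnmt3b, rose in each transition. Of the 5 tested genes of that list (6 in all), only Dnmt3l, their cofactor without catalytic activity, was called otherwise on TPM, lower in XY (-2.35, limma adjusted p 0.000635). Of all genes 19.2% rose in XX, 41.1% rose and 9.36% fell in XY, and 13.6% rose in Tet3-/-. On scaled values 2 of the 5 were higher and 1 lower in each transition. The shares of all genes were then 24.5% higher and 25.9% lower in XX, 26.4% and 25% in XY, and 25.2% and 27.2% in Tet3-/-. Dnmt3a went from 1.66 to 7.97 TPM in XX, from 3.86 to 29.7 TPM in XY and from 1.16 to 8.57 TPM in Tet3-/- (1.79, 2.68 and 2.14; limma adjusted p 2.68e-05, 1.13e-07 and 1.14e-06).

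The genes whose scaled levels followed each member most closely over the 19 libraries are given as a description, since the libraries share group and line. For Tet1 these were Elk1, Xiap, Kif4, Fto and Tsnax (Pearson's r 0.945 to 0.921), and the first 3 of these are on the X chromosome. For Tet2 they were Rfx2, Klf8, Slc15a1, Impa2 and Rbbp5 (r 0.983 to 0.970), of which Klf8 is also on the X chromosome. For Tet3 they were Slc9a5, Whrn, Map3k4, Dmc1 and Ift122 (r 0.968 to 0.948), and for Tdg Gli3, Rai1, Plxnb1, Sned1 and Ptpn9 (r 0.981 to 0.970).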

How the data were processed

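Libraries were stranded and made from total RNA after ribosomal RNA removal, per the labels' protocols. The deposited table holds TPM, with each column summing to 1000000; FastQC 0.11.7, Trimmomatic 0.35, Salmon 1.1.0 and GRCm38 are named in the submitters' processing notes, and the annotation is not given in the sources used here. Of 140948 transcripts, 1096 did not match GENCODE M21 and were left out. TPM was summed per gene. limma 3.58.1 (R 4.3.3) modelled log2(TPM + 1) over the 6 groups and 19 libraries together, for genes that reached a TPM of 1 in 3 or more libraries, with a trend and Benjamini-Hochberg adjustment over all genes. Fold changes on this scale understate the change of low genes. Transcripts used log2(TPM + 0.5) and a TPM floor of 0.5. Shares were tested by exact two-sided permutation within strata (Python 3.11.15, NumPy 2.4.6). The fit was tested on simulated data. The members and gene lists were chosen with earlier results of these data known. Named are all members, their transcripts whose mean TPM reached 0.5 in any group, up to 2 called list genes at each end per list and comparison, and the 5 genes most like each member with a mean TPM of at least 5. Alternatives were 2 other scalings, a pseudocount of 0.1, a TPM floor of 5 or none, no trend, only the groups compared, a replicate block, each library left out, and coding transcripts only for shares. Reads shared by overlapping genes cannot be checked in TPM; genes overlapping a member had at most 0.317 TPM on the opposite strand and, Mir6374 apart, 0.698 TPM on the same strand.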

Additional observations from a re-analysis of the deposited data

Results flagged for a closer look

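The XX and XY transitions were set apart by limma's test of the difference (XX minus XY, log2) for Tet1 (-2.81), Tet3 (-0.92), Tet1-206 (-2.67), Tet1-202 (-1.75) and Tet1-208 (-1.23). Tet1-208 was listed at 0 in all but 1 of the XY libraries, so its difference is the fall in XX. Leaving out a library ended the call of Tet1-208 in 10 of 12 fits (limma adjusted p up to 0.104) and that of Tet1-202 in 3 of 12, without XX EpiLC 1, XY EpiLC 2 or XY EpiLC 3 (up to 0.0649). In Tet3-/- mESC, the only group of 4 libraries, 3 of 49 measures of the members had a library far from the others: Tet1-210 at 0.0895 TPM in mutant 2, and Tdg-203 at 0.493 and Tdg-204 at 0.410 TPM in mutant 4. Chance alone gives such a library in about 1 in 20 groups.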

How the results depend on the processing

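Each result was recomputed with 1 choice changed at a time; 276 fits of the members' differences changed a choice other than a left-out library, and 257 of these kept direction and call. With median-of-ratios scaling, calls were gained for Tet1 in the XX transition (-0.71), Tet3 in the Tet3-/- transition (0.37), Tet1 between Tet3-/- and XX EpiLC (-0.80; 1 member called in place of 0) and Tet3 (0.45) and Tdg (-0.36) between XX and XY mESC (3 members in place of 1). Tet3 between XX and XY EpiLC was lost (-0.093; -0.18 with rescaling to nuclear protein-coding genes; -0.85 with a pseudocount of 0.1), and rescaling also lost Tdg there (-0.58; 1 member in place of 3) and Tet3 between the XX and XY transitions (-0.63; 1 member in place of 2, as when Tet3 went untested at a TPM of at least 5). Among uncalled differences the sign changed with scaling for Tet1 (-0.055) and Tet2 (-0.25) between Tet3-/- and XX mESC, Tet2 between XX and XY EpiLC (0.34) and Tdg between the Tet3-/- and XX transitions (0.10), and with rescaling for Tet2 (-0.19 and 0.26). Tdg in the Tet3-/- transition was lost with no filter and with only the groups compared (0.88 each) and with the replicate block (0.87, adjusted p 0.0532). The replicate block changed no other member's call. Same-numbered libraries did not deviate together in every pair (r of their deviations from -0.05 to 0.30 over 9 pairs), so the numbers were not taken as pairing. The cause of these changes was not tested.

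Leaving out a library moved Tet3 (0.50 to 0.72) and Tdg (0.93 to 1.24; 1 to 3 members called) in the XX transition and Tdg in the Tet3-/- transition (0.41 to 1.21). Between Tet3-/- and XX it moved Tet1 (-0.035 to 0.39), Tet2 (-0.33 to 0.33) and Tet3 (-0.17 to 0.039) in mESC, and Tet1 (-1.46 to -0.58; 0 to 1 members called) and Tdg (-0.38 to 0.41) in EpiLC. Between XX and XY it moved Tet2 in mESC (-0.55 to 0.66) and Tet3 in EpiLC (-0.76 to -0.48). In the differences between transitions it moved Tet2 (-0.85 to 0.36) and Tet3 (-1.07 to -0.79; 1 to 2 members) for XX minus XY, and Tet1 (-1.67 to -0.79; 0 to 1 members) and Tdg (-0.65 to 0.15) for Tet3-/- minus XX. Among shares, in percentage points, it moved Tet1 (-1.36 to 2.43), Tet2 (-3.04 to 0.753) and Tet3 (-0.0987 to 1.72) between Tet3-/- and XX, and Tet3 between XX and XY (-9.08 to -8.16). For leading transcripts it moved Tet1-206 (4.11 to 10.2), Tet2-204 (7.33 to 10.2) and Tet3-202 (-3.97 to 2.08) between XX and XY, and Tet3-202 between states (-2.76 to 1.68) and between Tet3-/- and XX (-4.76 to 1.91). With coding transcripts alone, Tet1-206 (-21.2) and Tet2-204 (12.0) between XX and XY, Tet2-204 between states (-3.24), Tet3-202 between states (2.65), and Tet3-202 (0.191) and Tdg-201 (-0.391) between Tet3-/- and XX changed sign or lost the call, and Tdg-201 between XX and XY gained it (7.81).

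The number of genes called ran, over all alternatives, from 2682 to 7541 in the XX transition (4689 as reported), from 4748 to 10638 in XY (7561) and from 3101 to 7843 in Tet3-/- (5258). For Tet3-/- against XX it ran from 0 to 476 in mESC (90) and from 27 to 818 in EpiLC (161), and for XX against XY from 1174 to 4683 in mESC (2121) and from 3655 to 10482 in EpiLC (7074). For XX minus XY it ran from 1124 to 3547 (2397) and for Tet3-/- minus XX from 1 to 102 (26). Depth is unknown for TPM, so no counting limit can be given.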
